A study of Homo sapiens with 12 samples.

Results

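The comparison covers the response of 22RV1 cells to nicotine, measured as gene expression on 6 of the 12 arrays of the series. The members are the 3 arrays labelled 22RV1 nicotine-treated and the 3 labelled 22RV1 untreated, chosen from the labels. All 11963 genes read by a probe set with 1 gene symbol are described. 22RV1 is an established human prostate cancer cell line. The treated cells were kept in 100 µM nicotine tartrate for 24 h, and the reference cells are called untreated, with no vehicle named. The other 6 arrays hold LnCaP, another established human prostate cancer line, as 3 arrays of nicotine-treated and 3 of untreated cells, and they entered the fit to share its estimate of the spread. No label gives a genetic change or states that replicates are separate cultures. The p-values thus reflect array-to-array spread that may be only technical.

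Nicotine binds nicotinic acetylcholine receptors, ligand-gated ion channels assembled from rings of alpha, beta and other subunits encoded by the CHRN genes. Opening of these channels lets cations into the cell, and in epithelial cells their activation has been linked to calcium and kinase signalling. Genes of mitosis are transcribed late in the cell cycle, and genes of cholesterol synthesis are transcribed under the SREBP factors when sterol in the endoplasmic reticulum is low, so both groups are common readouts of growth and lipid state in cultured cancer cells.

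Values are log2 expression as deposited, and a fold change is the mean of the 3 nicotine arrays minus the mean of the 3 untreated arrays, so a positive value means higher after nicotine. Within a group the arrays correlated at 0.991 to 0.997, and treated and untreated arrays correlated at 0.990 to 0.998. The arrays numbered 3 stood apart from numbers 1 and 2 in both groups. They held 28.1% (nicotine) and 23.9% (untreated) of the within-group sum of squares, and component 1 of a principal component analysis, with 53.6% of the variance, placed them at 19.8 and 19.1 while the other 4 arrays lay between -11.3 and -6.90. Arrays of the same number deviated together, so each count of list members at an unadjusted p under 0.05 for nicotine is also given from a fit with the replicate number as a block, where that changes it. Luminal prostate markers were high in 22RV1, with KRT18 at 12.67 and 12.71, STEAP1 at 12.20 and 12.22, HOXB13 at 11.08 and 11.19 and FOXA1 at 11.00 and 11.09 in nicotine and untreated cells. The AMACR probe set kept was low, at 4.37 and 4.75, and its other probe set with 1 gene symbol was at 4.63 and 4.59. Probe sets with several gene symbols were not used, so these values may not give the level of AMACR in the line. The 14 immune markers had mean levels of 4.74 to 4.77 per nicotine array and 4.64 to 4.87 per untreated array, and the 7 endothelial markers 4.57 to 4.67 and 4.45 to 4.71.

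No gene passed the test for nicotine in 22RV1. Of 11963 genes, 0 (percent called 0) had an adjusted p under 0.05 in limma, and the smallest adjusted p was 0.460. At an unadjusted p under 0.05 there were 633 genes, which is 5.29% of all, with 291 higher (2.43%) and 342 lower (2.86%) after nicotine. With the replicate block the count of calls was also 0, with a smallest adjusted p of 0.0791 for CDC14B, and 1351 genes (11.3%) had an unadjusted p under 0.05. The median size of a log2 fold change was 0.0798 and its median standard error 0.109, or 0.0854 with the block. The size of the change was over 1 in 6 genes. A call appeared in 3 alternatives, with 1 gene each: HLA-DQB1 with array weights, RFPL1S without nicotine replicate 3, and PCDH7 without untreated replicate 2. The 3 same-numbered pairs differed in spread, with 168 genes over 0.5 in either direction in pair 1, 111 in pair 2 and 651 in pair 3. Across genes, the pair differences correlated at 0.176 to 0.279, given as a description because genes are not independent replicates.

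**Figure D1:**
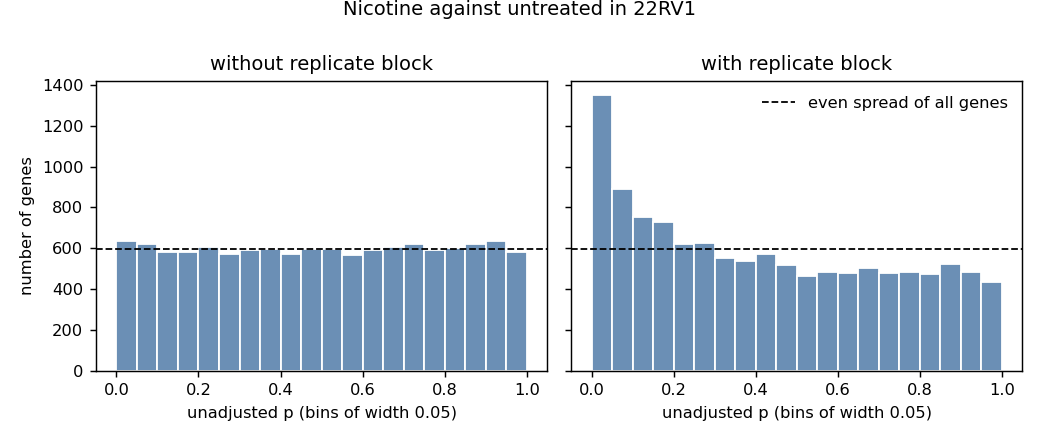
Histograms of unadjusted p-values for nicotine against untreated over 11963 genes in 22RV1, in bins of width 0.05, without the replicate block (left) and with it (right). The x axis is the p-value and the y axis the number of genes, and the dashed line is an even spread. The lowest bin holds 633 genes on the left and 1351 on the right.

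The genes with the smallest p-values included a cadherin-family adhesion gene, a histone gene and genes of splicing and nuclear bodies. PCDH7, which encodes protocadherin 7, was at 6.84, 6.71 and 6.86 in the nicotine arrays, against 8.31, 7.36 and 8.42 in the untreated arrays. All 3 nicotine values lay below all 3 untreated values, and untreated replicate 2 was the nearest to them. Its log2 fold change was -1.23 ± 0.21 (SE, n = 3 per group, limma adjusted p = 0.460), and its 3 dimmer probe sets had -0.56, -0.16 and -0.30. Without untreated replicate 2 it was -1.56 and passed, with an adjusted p of 0.000161.

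HLA-DQB1, the beta chain of an MHC class II molecule, was at 8.66, 8.59 and 8.99 after nicotine, against 9.55, 9.52 and 9.34 in untreated cells. The groups did not overlap, and the log2 fold change was -0.72 ± 0.13 (limma adjusted p = 0.460). Among its other probe sets, those at levels above 7 had -0.92, -0.85 and -0.23. The list of MHC class II genes had 13 measured members, with a median of -0.022 and 5 positive values. HLA-DQB1 was the member at an unadjusted p under 0.05, beside 2.86% of all genes lower. With the block 1 member was higher and 1 lower, beside 5.95% and 5.34% of all genes.

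H3C6, a replication-dependent histone H3 gene from a family of near-identical copies that a probe set may not separate, was at 6.15, 5.88 and 6.07 after nicotine, against 5.46, 5.50 and 5.44 in untreated cells (0.57 ± 0.09, limma adjusted p = 0.460). PSPC1, a protein of paraspeckles, was at 7.55, 7.62 and 7.59, against 6.97, 7.23 and 7.04. ALDOC, the glycolytic aldolase C, was at 9.62, 9.47 and 9.72, against 9.23, 9.14 and 9.09. In all 3 of these genes every nicotine array lay above every untreated array (5.42% of all genes), which follows largely from their choice by p-value.

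Groups were also separate for several genes of secreted and membrane proteins among the 20 smallest p-values. As for PCDH7 and HLA-DQB1, this follows largely from the choice by p-value. Over all genes, every nicotine array lay above every untreated array in 5.42% and below in 6.47%. NMB, the neuropeptide neuromedin B, was at 10.18, 9.90 and 10.12 after nicotine, against 10.53, 10.50 and 10.99 in untreated cells. KCNMB2, a beta subunit of calcium-activated BK potassium channels, was at 5.92, 6.06 and 6.62, against 5.41, 5.37 and 5.60. NMB was thus lower in every nicotine array and KCNMB2 higher in every nicotine array. CTSK, the protease cathepsin K, was at 5.95, 6.22 and 6.37, against 5.36, 5.83 and 5.50. CGA, the shared alpha chain of the glycoprotein hormones, was at 7.05, 7.44 and 7.68, against 6.60, 6.90 and 6.78. TNFRSF10D, a decoy receptor for the death ligand TRAIL, was at 6.21, 5.91 and 6.28, against 5.74, 5.51 and 5.49. These 3 were higher in every nicotine array, with log2 fold changes of 0.62, 0.63 and 0.55. Among the rest of the 20 genes with the smallest p-values, ADIRF, a regulator of adipocyte formation, had -0.74, and ABAT, the transaminase that breaks down GABA, and LPAR2, a lysophosphatidic acid receptor, had 0.56 each. GSDMB, a gasdermin, had 0.46, PRSS8, the membrane serine protease prostasin, 0.44, FLCN, which encodes folliculin, 0.41, and the ataxin gene ATXN1 0.49. The limma adjusted p-values of these genes were 0.460 to 0.720. Other probe sets had 0.05 for GSDMB, 0.07 and 0.43 for ABAT, 0.35 for LPAR2 and 0.54 for ATXN1.

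**Figure D2:**
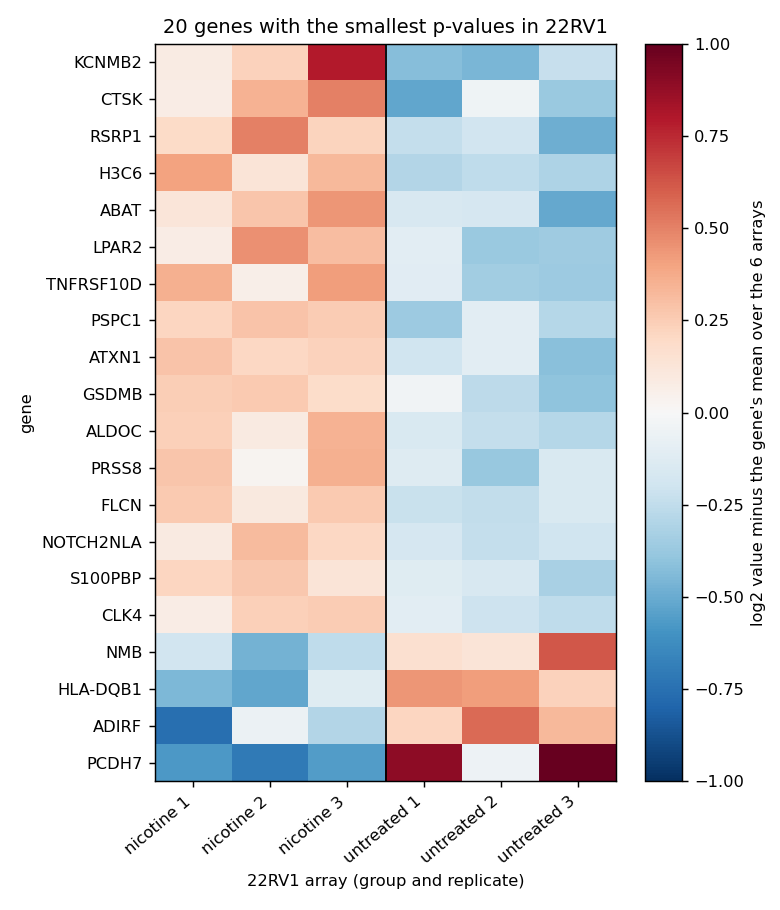
Heat map of the 20 genes with the smallest p-values for nicotine against untreated in 22RV1, as log2 value minus the gene's mean over the 6 arrays (colour scale clipped at -1 and 1), with nicotine arrays left of the line and untreated arrays right of it. The 16 upper genes are higher and the 4 lower genes (NMB, HLA-DQB1, ADIRF and PCDH7) lower after nicotine, and none of the 20 passed adjustment.

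Several genes had 1 sign in all pairs while their level varied between replicate numbers. They were chosen by their p-value in the block fit or by their smallest pair difference, so the shared sign is a description. CDC14B, a phosphatase that acts on cyclin-dependent kinase substrates, was at 6.45, 6.08 and 6.20 after nicotine, against 5.69, 5.55 and 5.49 in untreated cells (0.67, limma adjusted p = 0.0791 with the block and 0.776 without). Its 4 dimmer probe sets had 0.22, -0.19, 0.03 and 0.25, so they differed in direction. DKK1, a secreted Wnt antagonist, was at 8.71, 8.65 and 6.32, against 10.03, 9.18 and 7.87. Every pair was lower after nicotine, but the groups overlapped and both arrays numbered 3 were low (-1.14 ± 0.59, limma adjusted p = 0.940, or 0.110 with the block). MT1E, a metal-binding metallothionein from a family of similar copies, showed the same layout at 8.67, 9.58 and 6.97, against 9.57, 10.07 and 8.60 (-1.01 ± 0.52, limma adjusted p = 0.930, or 0.158 with the block). The other MT1E probe set, with means of 7.80 and 7.93 in nicotine and untreated cells, had a smaller change of -0.13. BCL6, a transcriptional repressor, had -0.40, TRAF3, an adaptor of TNF receptor signalling, 0.41, PLXNA1, a semaphorin receptor, 0.44, and SLIT1, an axon guidance ligand, 0.40, all of 1 direction in 3 of 3 pairs. The other probe set of each of TRAF3 and SLIT1 was near 0, at -0.01 for TRAF3 and -0.03 for SLIT1. That of PLXNA1 had 0.10 and that of BCL6 -0.35. PYGL, liver glycogen phosphorylase, was at 7.80, 7.13 and 8.16 after nicotine, against 7.39, 6.73 and 7.21 in untreated cells (0.59), and the ankyrin repeat gene ANKRD36B had 0.69. CRIP1, a LIM domain protein, was at 8.37, 8.70 and 7.76, against 8.78, 9.17 and 8.81 (-0.64), SERPINI1, the protease inhibitor neuroserpin, had -0.55 and HMGN5, a nucleosome-binding protein, -0.49.

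The genes of G2 and mitosis had lower values after nicotine, none of which passed the test. All 58 measured members of the G2/M list (59 listed) had negative log2 fold changes, from -0.52 to -0.10, against 52.3% of all genes below 0. The list median was -0.25, against -0.0071 over all genes, and the medians of pairs 1, 2 and 3 were -0.31, -0.14 and -0.35. At an unadjusted p under 0.05, 24 of 58 were lower and 0 higher, beside 2.86% of all genes lower, and 36 were lower with the block, beside 5.34%. In 32 of 58 every nicotine array lay below every untreated array (6.47% of all genes), and 46 were lower in all 3 pairs (18.4% of all genes). The smallest limma adjusted p in the list was 0.595, or 0.200 with the block.

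CCNB1, which encodes cyclin B1 and drives entry into mitosis, was at 9.68, 9.82 and 10.01 after nicotine, against 10.30, 10.19 and 10.46 in untreated cells (-0.48 ± 0.14, limma adjusted p = 0.879). DLGAP5, a spindle microtubule protein, was at 7.85, 8.18 and 8.41, against 8.55, 8.54 and 8.90 (-0.52 ± 0.16, limma adjusted p = 0.879). CCNA2, the gene of cyclin A2, was at 9.50, 9.54 and 9.42, against 9.77, 9.80 and 10.02 (-0.38 ± 0.11, limma adjusted p = 0.879). None of these 3 genes had overlapping groups. PIMREG, a mitotic regulator, was at 8.64, 8.74 and 8.60, against 8.97, 8.97 and 9.22 (-0.40 ± 0.09, limma adjusted p = 0.595). MKI67, which encodes the cell division marker Ki-67, was at 8.60, 8.92 and 8.77, against 8.94, 8.95 and 8.94. Its nicotine array 2 lay close to the untreated level, and its log2 fold change was -0.18 ± 0.11 (limma adjusted p = 0.961).

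The mean level of the 58 genes was 9.15, 9.32 and 9.36 in the nicotine arrays, against 9.47, 9.45 and 9.69 in the untreated arrays, so the list means of the groups did not overlap. The count of negative members was 57 or 58 of 58 when any of the 6 arrays was left out. The number lower at an unadjusted p under 0.05 moved more, with 8 without nicotine replicate 1 and 8 without untreated replicate 3, and 16 without the arrays numbered 3. In bulk samples, fewer cells in a phase and less RNA per cell cannot be told apart.

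The promoters of 2 G2/M genes are shown because mitotic genes are known to share short promoter elements. They are the cell cycle homology region or CHR (searched as TTTGAA or a variant, TTCGAA) and the CCAAT box (its letters as named). Both were searched on both strands from 250 bases before to 50 after each start in RefSeq promoters of GRCh38.p14. Capitals mark every match on either strand. DLGAP5 lies at chr14:55191536-55191835 on the minus strand and CCNB1 at chr5:69166900-69167199 on the plus strand.
DLGAP5: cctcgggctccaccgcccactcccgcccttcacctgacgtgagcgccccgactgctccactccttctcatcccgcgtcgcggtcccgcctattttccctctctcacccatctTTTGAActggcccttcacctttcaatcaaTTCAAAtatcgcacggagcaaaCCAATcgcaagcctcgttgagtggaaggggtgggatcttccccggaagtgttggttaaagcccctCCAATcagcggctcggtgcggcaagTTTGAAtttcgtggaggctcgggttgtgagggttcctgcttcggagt
CCNB1: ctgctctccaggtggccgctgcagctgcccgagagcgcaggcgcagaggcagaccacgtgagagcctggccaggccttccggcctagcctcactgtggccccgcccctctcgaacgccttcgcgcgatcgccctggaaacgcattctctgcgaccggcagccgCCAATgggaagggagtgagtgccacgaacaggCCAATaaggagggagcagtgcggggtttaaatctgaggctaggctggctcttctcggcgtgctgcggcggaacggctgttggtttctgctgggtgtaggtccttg
For the letters searched, DLGAP5 held 3 CHR and 2 CCAAT matches, and CCNB1 0 CHR and 2 CCAAT matches. Other forms of the CHR were not searched, so 0 matches does not mean that the element is absent. Of 61 promoters of 48 G2/M genes, 63.9% held the CHR letters, against 16.4% of all 35116 promoters. CCAAT was in 72.1% of them, against 34.6% of all, and both were in 52.5%, against 6.38% of all. Of 51 promoters of G1/S genes, 7.84% held the CHR letters and 52.9% CCAAT. These matches describe the letters in the window and are not evidence of binding.

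The genes of the G1/S transition and DNA replication differed between pairs. Of 43 measured, 40 had negative log2 fold changes, with a list median of -0.17, but the medians of pairs 1, 2 and 3 were -0.029, 0.005 and -0.45. At an unadjusted p under 0.05, 1 was lower, near the 2.86% of all genes, and 4 were lower with the block, beside 5.34%. In 8 every nicotine array lay below every untreated array, beside 6.47% of all genes. The list mean was 9.66, 9.70 and 9.41 in the nicotine arrays, against 9.69, 9.71 and 9.90 in the untreated arrays. The number 3 arrays therefore held the lowest nicotine and the highest untreated mean, and without them the median was 0.00943. TK1, the thymidine kinase of nucleotide salvage, showed this layout at 8.76, 8.94 and 8.47, against 8.87, 8.91 and 9.34 (-0.32 ± 0.16, limma adjusted p = 0.930). RPA3, a subunit of the protein that coats single-stranded DNA, was at 11.02, 11.05 and 11.19, against 11.31, 11.28 and 11.81, and was the member at an unadjusted p under 0.05 (-0.38 ± 0.14, limma adjusted p = 0.890). E2F2, a transcription factor of S-phase entry, had -0.34 and CDC7, a kinase that fires replication origins, -0.32.

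**Figure D3:**
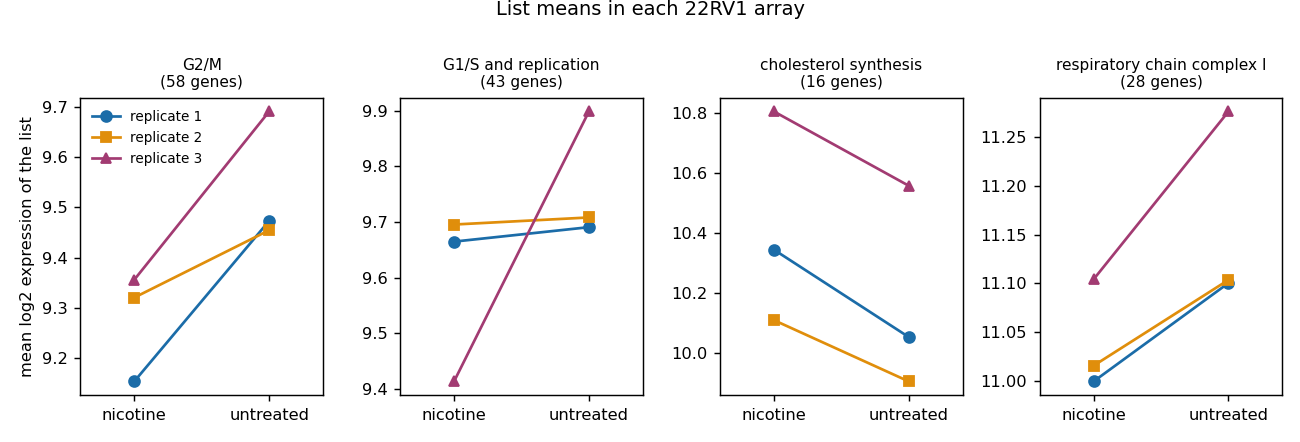
Mean log2 expression of 4 gene lists in each 22RV1 array, nicotine left and untreated right, with a line joining arrays of the same replicate number; the y axes differ between panels. The G2/M mean is lower after nicotine in all 3 pairs with no overlap of groups, the cholesterol synthesis mean is higher in all 3 pairs with overlapping groups, and the G1/S mean differs mainly in pair 3.

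Genes of cholesterol synthesis were the list with the highest median in 22RV1. Of 16 measured (20 listed), 15 had positive log2 fold changes, against 47.7% of all genes, and the same number was higher in all 3 pairs, against 17.0%. The list median was 0.25, and the medians of pairs 1, 2 and 3 were 0.28, 0.22 and 0.24. The exception was PMVK, phosphomevalonate kinase, at -0.04, which was at 0.0038 without the arrays numbered 3. At an unadjusted p under 0.05, 2 were higher, beside 2.43% of all genes, or 9 with the block, beside 5.95%, and the smallest limma adjusted p was 0.921, or 0.200 with the block. In 0 of 16 were the groups separate, and the level varied between numbers, with list means of 10.34, 10.11 and 10.80 after nicotine, against 10.05, 9.90 and 10.56 in untreated cells.

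HMGCS1, the synthase that makes HMG-CoA early in the pathway, was at 11.64, 11.03 and 12.07 after nicotine, against 11.02, 10.65 and 11.40 in untreated cells (0.55 ± 0.51, limma adjusted p = 0.992). SQLE, squalene epoxidase, was at 11.03, 10.65 and 11.07, against 10.45, 10.31 and 10.84 (0.38 ± 0.16, limma adjusted p = 0.921). MSMO1, the sterol C4-methyl oxidase, was at 11.40, 11.07 and 11.49, against 10.95, 10.71 and 11.23 (0.36 ± 0.15, limma adjusted p = 0.921). In each of these genes the difference had 1 sign in 3 pairs, while nicotine replicate 2 lay inside the untreated range. LSS, which forms lanosterol, was at 10.78, 10.68 and 11.51, against 10.54, 10.36 and 10.93. IDI1, the isopentenyl diphosphate isomerase, was at 11.84, 11.60 and 12.41, against 11.54, 11.33 and 12.04. Their log2 fold changes were 0.38 and 0.31.

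The list median moved when 1 array was left out. It was 0.0318 without nicotine replicate 3, 0.0997 without untreated replicate 2, 0.166 without untreated replicate 1, 0.426 without nicotine replicate 2 and 0.452 without untreated replicate 3. Without both groups' arrays numbered 3 it was 0.238, with 16 of 16 members positive.

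The genes that control sterol supply were less uniform. Of 10 measured, 9 had positive values, with a median of 0.098 and pair medians of 0.037, 0.061 and 0.31. At an unadjusted p under 0.05, 2 were higher, beside 2.43% of all genes, or 3 with the block, beside 5.95%. SREBF2, which encodes the main transcription factor of the cholesterol genes, was at 10.61, 10.45 and 10.60 after nicotine, against 10.38, 10.21 and 10.12 in untreated cells, with no overlap (0.32 ± 0.10, limma adjusted p = 0.879). LPIN1, a phosphatidate phosphatase, was at 9.82, 9.68 and 10.12, against 9.58, 9.41 and 9.57, also with no overlap (0.35 ± 0.16, limma adjusted p = 0.921). These were the 2 of 10 members with every nicotine array above every untreated array, beside 5.42% of all genes. Their separation follows largely from their choice by p-value within the list. INSIG1, which holds the SREBP complex in the endoplasmic reticulum, was at 11.94, 11.46 and 12.01, against 11.61, 11.25 and 11.67, and its relative INSIG2 had 0.12. The median was 0.0291 without the arrays numbered 3.

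A pair of promoters is shown for the sterol genes, with capitals for the sterol regulatory element SRE, a motif of 10 bases read by the SREBP factors, and for CCAAT, searched on both strands as above and without overlap. SREBF2 lies at chr22:41832855-41833154 on the plus strand and MSMO1 at chr4:165327419-165327718 on the plus strand.
SREBF2: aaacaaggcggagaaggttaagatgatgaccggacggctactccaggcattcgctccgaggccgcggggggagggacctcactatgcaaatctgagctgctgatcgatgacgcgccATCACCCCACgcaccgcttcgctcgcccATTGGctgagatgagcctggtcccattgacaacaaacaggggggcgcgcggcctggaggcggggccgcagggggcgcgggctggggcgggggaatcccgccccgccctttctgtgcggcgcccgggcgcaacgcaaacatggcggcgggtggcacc
MSMO1: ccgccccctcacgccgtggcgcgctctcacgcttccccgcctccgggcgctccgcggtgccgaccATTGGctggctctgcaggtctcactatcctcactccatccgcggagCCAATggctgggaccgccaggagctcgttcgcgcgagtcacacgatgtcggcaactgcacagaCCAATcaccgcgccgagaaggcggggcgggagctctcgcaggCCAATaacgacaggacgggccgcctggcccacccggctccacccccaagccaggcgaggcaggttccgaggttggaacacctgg
SREBF2 held 1 sterol element and 1 CCAAT match, and MSMO1 held 4 CCAAT matches. The sterol element letters were in 16 of 35116 promoters, or 0.0456%, and in 0 of 19 promoters of cholesterol synthesis genes. CCAAT was in 78.9% of those 19, against 34.6% of all promoters.

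The fatty acid synthesis list, with 12 measured members, had 7 positive values and a median of 0.070. An unadjusted p under 0.05 was found for 0 members, beside 5.29% of all genes. With the block 1 was higher, beside 5.95%. SCD, the stearoyl-CoA desaturase, was at 12.14, 11.75 and 12.40 after nicotine, against 11.96, 11.57 and 12.11 in untreated cells. FASN, fatty acid synthase, was at 11.99, 11.86 and 11.85, against 11.87, 11.89 and 11.42, so that its difference lay in pairs 1 and 3. ACACB, a mitochondrial acetyl-CoA carboxylase, had 0.21 ± 0.10 (limma adjusted p = 0.921), but its other probe sets had -0.07, 0.03 and 0.06.

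Nuclear genes of the mitochondrial respiratory chain and ribosome had small negative values. Of 28 complex I genes, 27 were negative, with a median of -0.12 and pair medians of -0.10, -0.071 and -0.19, and 21 were lower in all 3 pairs, against 18.4% of all genes. At an unadjusted p under 0.05, 5 were lower, beside 2.86% of all genes, and 7 with the block, beside 5.34%. In 8 every nicotine array lay below every untreated array, beside 6.47% of all genes. NDUFA7, an accessory subunit, was at 10.15, 10.01 and 10.14 after nicotine, against 10.34, 10.27 and 10.54 in untreated cells (-0.28 ± 0.08, limma adjusted p = 0.879). NDUFB8 had -0.22, NDUFA13 -0.19 and the core iron-sulfur subunit NDUFS1 -0.22. The dimmer probe sets of NDUFB8 had -0.13 and 0.24, so they differed in direction. Of 21 genes of complexes II to IV and cytochrome c, 19 were negative (median -0.095), with CYC1, cytochrome c1, at -0.16 and COX5B, a subunit of cytochrome c oxidase, at -0.17. Of 14 ATP synthase genes, 13 were negative (median -0.077), and 0 had an unadjusted p under 0.05.

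Of 46 genes of the mitochondrial ribosome, 39 were negative, with a median of -0.12, and 6 were lower at an unadjusted p under 0.05, beside 2.86% of all genes, or 11 with the block, beside 5.34%. In 11 of the 46 every nicotine array lay below every untreated array, beside 6.47% of all genes, and in 1 above, beside 5.42%. MRPL39, a protein of the large subunit, was at 9.24, 9.31 and 9.40 after nicotine, against 9.48, 9.51 and 9.79 in untreated cells, with no overlap (-0.27 ± 0.09, limma adjusted p = 0.879). MRPL12 had -0.39, with nicotine replicate 3 at 9.03 and the other nicotine arrays at 9.69 and 9.70. The complex I mean was 11.00, 11.02 and 11.10 in the nicotine arrays, against 11.10, 11.10 and 11.28 in the untreated arrays. Untreated replicate 3 was thus the highest, and without it the medians of complex I, the mitochondrial ribosome, complexes II to IV and ATP synthase were -0.0507, -0.0698, -0.0601 and -0.0202.

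**Figure D4:**
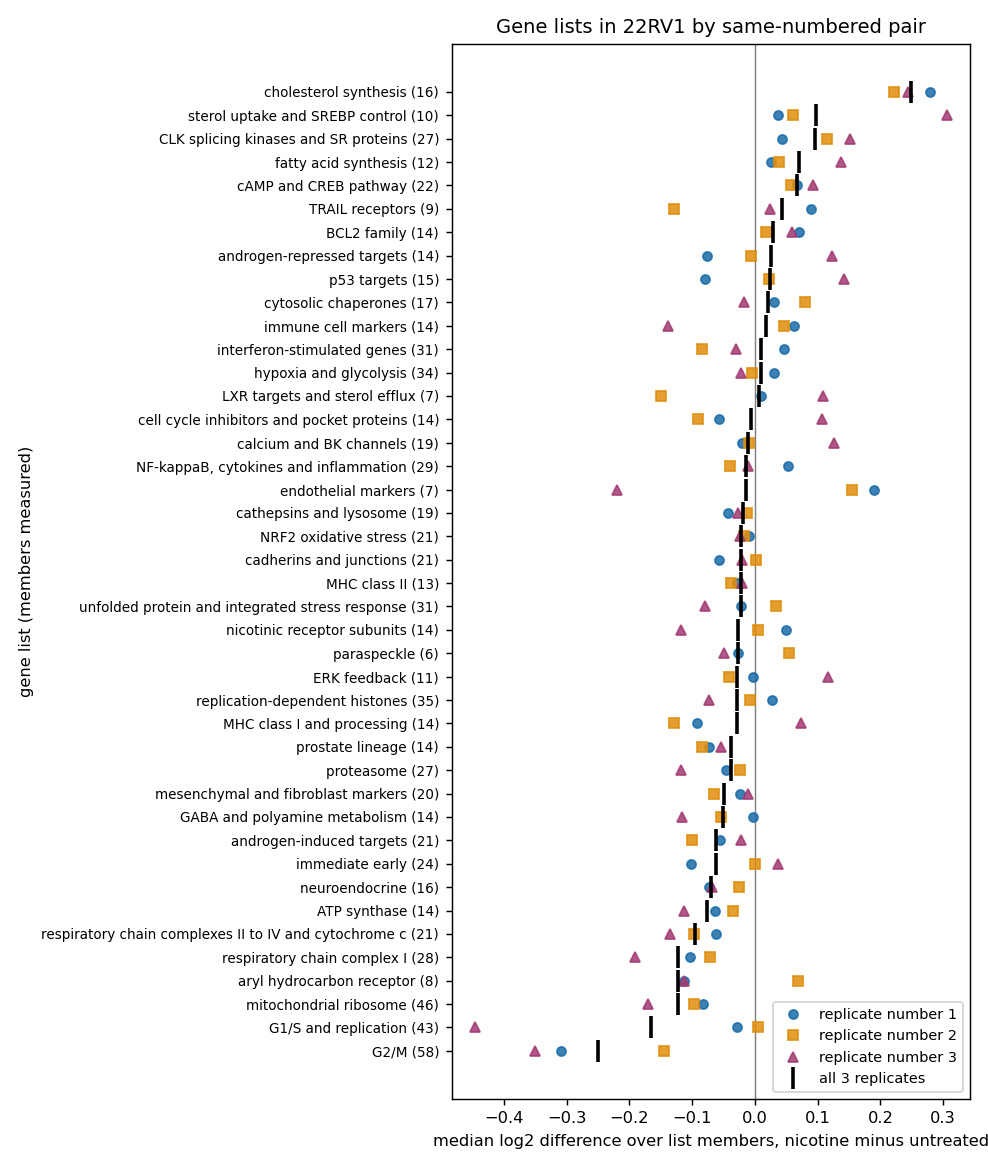
Median log2 difference, nicotine minus untreated, over the members of each gene list in 22RV1, for each same-numbered pair (circles, squares and triangles) and for the fold change over all 3 replicates (bars). Cholesterol synthesis lies at 0.22 to 0.28 in the 3 pairs and G2/M at -0.35 to -0.14, most other lists lie near 0, and G1/S is far from 0 in pair 3 only.

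Genes of splicing regulation had more positive than negative values. Of 27 CLK kinases and SR-type splicing proteins, 23 were positive, with a median of 0.096 and pair medians of 0.044, 0.11 and 0.15. At an unadjusted p under 0.05, 4 were higher, beside 2.43% of all genes: RSRP1, CLK1, CLK4 and RBM5. With the block 5 were higher, beside 5.95% of all genes. CLK1, a kinase of SR proteins, was at 8.41, 8.60 and 8.54 after nicotine, against 8.09, 8.07 and 8.11 in untreated cells (0.42 ± 0.10, limma adjusted p = 0.677). RSRP1, an arginine- and serine-rich protein gene, was at 8.56, 8.87 and 8.59, against 8.12, 8.17 and 7.88 (0.61 ± 0.12, limma adjusted p = 0.460), and its other probe set had 0.91. CLK4 had 0.38 and the splicing regulator RBM5 0.28. In all 4 the groups were separate, which follows largely from their choice by p-value. In 7 of the 27 every nicotine array lay above every untreated array, beside 5.42% of all genes. In 0 every nicotine array lay below, beside 6.47%. The list median was 0.166 without untreated replicate 1.

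The nicotinic receptor genes were measured for 14 subunits, of which 10 had negative and 4 positive values, and 0 had an unadjusted p under 0.05 with or without the block. CHRNA5, an accessory alpha subunit in a locus known for smoking-related variation, was at 6.89, 7.08 and 6.79 after nicotine, against 6.83, 6.94 and 6.99 in untreated cells (-0.00073 ± 0.12, limma adjusted p = 0.999). CHRNB2, a beta subunit of neuronal receptors, was at 8.03, 7.79 and 7.96, against 7.77, 8.22 and 8.17. CHRNB1, the muscle-type beta subunit, was at 6.57, 6.95 and 6.83, against 6.74, 6.73 and 6.93. The groups overlapped in these 3 genes.

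Androgen-induced targets had no common direction, with 9 of 21 positive and a median of -0.062, which was 0.0213 without untreated replicate 1 and -0.123 without untreated replicate 3. There was 1 lower member at an unadjusted p under 0.05, beside 2.86% of all genes, and with the block 1 was higher and 4 lower, beside 5.95% and 5.34%. The secreted kallikreins were lower after nicotine in each pair while their level differed between replicate numbers. KLK2 was at 9.28, 9.20 and 7.94 after nicotine, against 9.87, 9.65 and 8.70 in untreated cells (-0.60 ± 0.36, limma adjusted p = 0.961, or 0.200 with the block). KLK3, which encodes prostate-specific antigen, was at 9.04, 8.97 and 7.74, against 9.31, 9.34 and 8.24 (-0.38 ± 0.34, limma adjusted p = 0.992, or 0.217 with the block). ACP3, prostatic acid phosphatase, had the opposite sign, at 6.52, 6.36 and 6.91, against 6.40, 5.97 and 6.16 (0.42). CENPN, a centromere protein and androgen-induced gene, was the member with an unadjusted p under 0.05 and separate groups (-0.32). Over all genes, every nicotine array lay below every untreated array in 6.47%. The 14 androgen-repressed targets were split into 7 positive and 7 negative, with a median of 0.026. Leaving out nicotine replicate 3 gave a median of -0.108. Leaving out an untreated array gave -0.0352 (replicate 1), -0.0360 (replicate 2) or 0.173 (replicate 3).

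Inflammatory genes had differences in both directions. In the list of NF-kappaB, cytokine and inflammation genes, 0 of 29 had an unadjusted p under 0.05, beside 5.29% of all genes. With the block 1 was lower, beside 5.34%, and the list median was -0.014. IL6 was at 4.99, 5.32 and 5.12 after nicotine, against 5.03, 5.03 and 5.21 in untreated cells, and CXCL8, interleukin 8, at 4.02, 4.03 and 4.13, against 4.03, 3.92 and 4.08. The groups overlapped in both cytokines. Of 31 interferon-stimulated genes, 17 were positive, with 1 higher and 3 lower at an unadjusted p under 0.05, beside 2.43% and 2.86% of all genes. With the block 2 were higher and 5 lower, beside 5.95% and 5.34%. Those without the block included HERC6, a ubiquitin ligase, at 0.38 and IFITM3, an antiviral membrane protein, at -0.23. PSMB9, an immunoproteasome subunit, was at 5.50, 5.81 and 5.93, against 6.02, 5.97 and 6.32 (-0.36).

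Among stress and signalling genes, DNAJB1, a heat shock cochaperone, was at 9.84, 10.16 and 10.05 after nicotine, against 9.53, 9.67 and 9.61 in untreated cells (0.41 ± 0.11, limma adjusted p = 0.829). NQO1, a quinone reductase of the oxidative stress response, was at 8.53, 8.58 and 8.58, against 8.89, 8.76 and 9.23 (-0.40 ± 0.13, limma adjusted p = 0.879). The groups were separate in both genes, which follows largely from their choice by p-value within their lists. SAT1, which acetylates polyamines, was at 9.23, 9.57 and 9.20, against 9.62, 9.83 and 9.59 (-0.35), and ITPR1, a calcium channel of the endoplasmic reticulum, had -0.49. The other probe sets of ITPR1 had 0.26 and -0.04, so they differed in direction. CYP1A1, a cytochrome P450 induced through the aryl hydrocarbon receptor, was at 5.45, 6.15 and 5.75, against 6.72, 5.79 and 6.10, with overlapping groups. Of the 20 mesenchymal markers, 6 were positive and 14 negative, with a median of -0.049. The unadjusted p was under 0.05 for 2 higher and 1 lower, beside 2.43% and 2.86% of all genes. These were TAGLN, an actin-binding protein of smooth muscle, at 0.60, DCN, the proteoglycan decorin, at 0.29 and SNAI1, a repressor of E-cadherin, at -0.32.

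Immediate early genes differed by 1 array. FOS was at 5.70, 5.94 and 6.06 after nicotine, against 8.79, 5.90 and 5.58 in untreated cells, and FOSB at 4.83, 4.94 and 4.78, against 7.61, 4.96 and 4.88. Both transcription factor genes were high in untreated replicate 1, and their log2 fold changes of -0.86 ± 0.61 and -0.97 ± 0.53 rest on that array. Without it, FOS was at 0.158 and FOSB at -0.0706. EGR1 was at 7.41, 7.47 and 7.14, against 8.04, 7.70 and 7.05. Over 24 immediate early genes, the mean of untreated replicate 1 was 8.04, against 7.46 to 7.58 in the other 5 arrays.

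Whether the response in 22RV1 differed from that in LnCaP was tested as the difference of the fold changes, 22RV1 minus LnCaP. Without the block 0 of 11963 genes passed (smallest limma adjusted p 0.205) and 749 (6.26%) had an unadjusted p under 0.05. With the block 19 passed, or 0.159% of all genes, of which 11 had the higher fold change in 22RV1. That fit also pairs same-numbered LnCaP arrays, a pairing that was checked in 22RV1 only. Among them were IDI1 at 0.68, LPIN1 at 0.86 and INSIG1 at 0.92, with limma adjusted p-values in the block fit of 0.0432, 0.0432 and 0.0333. INSIG1 had a log2 fold change of 0.29 in 22RV1 and -0.63 in LnCaP. IDI1 had 0.31 in 22RV1 and -0.37 in LnCaP, and LPIN1 0.35 in 22RV1 and -0.51 in LnCaP. Each therefore had the opposite sign in the lines. The other difference genes included DNAAF5, an assembly factor of ciliary dynein, with 0.28 in 22RV1 and -0.40 in LnCaP (difference 0.67, limma adjusted p = 0.0432 with the block), and NAP1L3, a nucleosome assembly protein, with -0.76 in 22RV1 and 0.54 in LnCaP (difference -1.29, limma adjusted p = 0.0432 with the block). MIPEP, a mitochondrial peptidase, had -0.43 in 22RV1 and 0.60 in LnCaP, and ERBIN, a scaffold protein bound to ERBB2, had -0.20 in 22RV1 and 0.37 in LnCaP. Their differences had limma adjusted p-values of 0.0560 and 0.0813 with the block. PLA2G2A, a secreted phospholipase, was at 5.27, 5.27 and 5.44 in nicotine-treated 22RV1 cells, against 5.31, 5.07 and 5.39 in untreated 22RV1 cells. Its difference between the lines was -1.62 (limma adjusted p = 0.0333 with the block). The log2 fold change of PLA2G2A in 22RV1 was 0.07, so nearly all of that difference lay in LnCaP.

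Over the cholesterol synthesis list the median was 0.25 in 22RV1 and -0.33 in LnCaP, and the median difference was 0.65. Of its 16 genes, 6 had an unadjusted p under 0.05 for the difference, all with the higher fold change in 22RV1, beside 3.53% of all genes. The adjusted test was passed by 2 with the block, IDI1 and EBP, a sterol isomerase. SQLE, at 0.91, and MSMO1, at 0.78, had limma adjusted p-values of 0.0581 and 0.0620 in that fit. The G2/M genes were negative in both lines, with a median of -0.25 in 22RV1 and -0.62 in LnCaP. Of these 58 genes, 27 had an unadjusted p under 0.05 for a fold change higher (nearer to 0) in 22RV1, and 0 passed the adjusted test with or without the block. The complex I median was -0.12 in 22RV1 and -0.052 in LnCaP, and 0 of 28 genes had an unadjusted p under 0.05 for the difference.

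**Figure D5:**
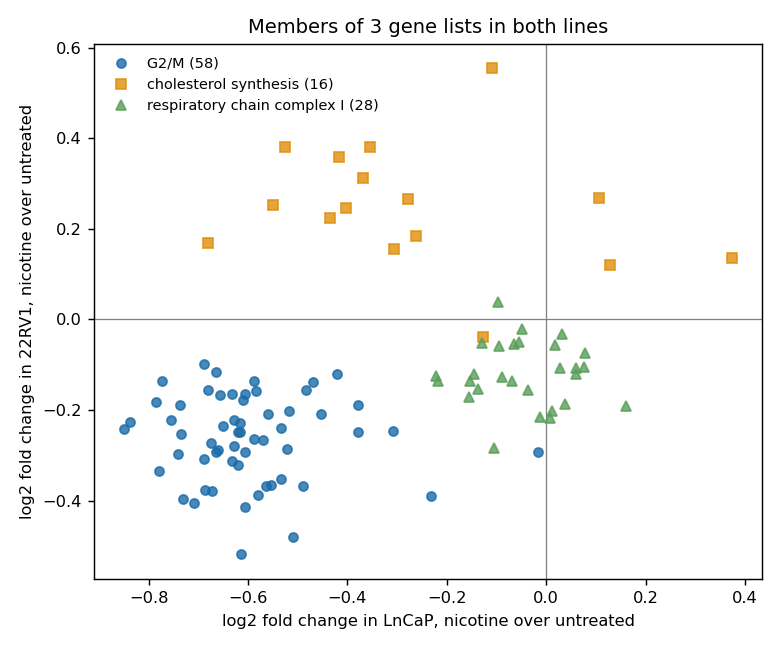
Log2 fold change, nicotine over untreated, in 22RV1 (y axis) against LnCaP (x axis) for members of 3 gene lists, each point a gene. G2/M genes (circles, 58) lie below 0 in both lines, most cholesterol synthesis genes (squares, 16) lie above 0 in 22RV1 and below 0 in LnCaP, and complex I genes (triangles, 28) lie just below 0 in 22RV1 and around 0 in LnCaP.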

How the data were processed

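Per the labels' protocols, RNA isolated with TRIzol was made into biotinylated cRNA for Affymetrix arrays. The authors deposited log2 expression values for 22277 probe sets on 12 arrays, with array medians of 6.61 to 6.71. How they were normalized, and with which software, is not given in the sources used here, and precision depends on the number of arrays. The platform annotation gave 1 gene symbol for 19070 probe sets, several for 1043 and no entry for 2164, which stay unnamed. Where a gene had several probe sets (4310 genes), its brightest by mean was kept. Probe sets with several symbols or no entry were left out of the gene values, so a gene read only by them has none. This left 11963 genes, with no filter on expression level.

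R 4.3.3 and limma 3.58.1 were used to fit group means to the 12 arrays (lmFit, eBayes). Tests were two-sided, with Benjamini-Hochberg adjustment over all genes and a call at an adjusted p under 0.05. SE is that of the moderated fit. Deviations of same-numbered treated and untreated 22RV1 arrays from their group means correlated at 0.465, 0.454 and 0.640, against at most 0.270 for other numbers, so the labels' numbers were taken to pair the arrays. The block is the replicate number within the line (6 blocks). It pairs the LnCaP arrays too, for which the same check was not made. The fit was also run on simulated arrays with noise drawn independently for each array. These lacked the deviations that same-numbered arrays share, so they do not show how the fit performs on these data. Alternatives changed the block, the arrays, array weights, variance trend, scaling, filter, probe sets and replicates.

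The members and the 42 gene lists of at least 5 measured genes (829 of 955 listed symbols measured) were chosen with earlier results of these data known, so lists are described by counts and medians with no list test. Named genes were the 20 smallest p-values with and without the block, the 10 highest and 10 lowest by the smallest pair difference, the 10 smallest p-values for the difference between lines, up to 4 members of each list, and a fixed set that always included KLK3, MKI67, CCNB1, HMGCS1, CHRNA5, CHRNB1, CHRNB2, CYP1A1, IL6, CXCL8, FOS and EGR1. A further 3 genes of that set are not analysed here. Luminal markers, PMVK, RFPL1S and EBP were named after their values were seen.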

Additional observations from a re-analysis of the deposited data

Results flagged for a closer look

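The medians of 4 gene lists had opposite signs in the lines in every same-numbered pair. The cholesterol synthesis list had a median log2 fold change of 0.249 in 22RV1 and -0.331 in LnCaP, the sterol uptake and SREBP control list 0.0982 in 22RV1 and -0.0902 in LnCaP, the fatty acid synthesis list 0.0704 in 22RV1 and -0.143 in LnCaP, and the prostate lineage list -0.0379 in 22RV1 and 0.0282 in LnCaP. The prostate lineage median in 22RV1 was 0.0365 without nicotine replicate 3, 0.0345 without untreated replicate 1 and -0.158 without untreated replicate 3. These list differences were not tested.

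For 9 named genes the difference of the fold changes, 22RV1 minus LnCaP, passed the limma test with the replicate block, at adjusted p-values of 0.0333 to 0.0432, but not without it. The fold change was higher in 22RV1 for INSIG1 (0.92), CAPN15 (0.87), LPIN1 (0.86), EBP (0.85), IDI1 (0.68) and DNAAF5 (0.67), and lower in 22RV1 for PLA2G2A (-1.62), NAP1L3 (-1.29) and B3GALT4 (-0.79). CAPN15, a calpain-family protease, was at 7.72, 7.48 and 7.47 in nicotine-treated 22RV1 cells, against 7.52, 7.44 and 7.17 in untreated ones. B3GALT4, a glycosyltransferase, was at 7.33, 7.18 and 7.38 in nicotine-treated 22RV1 cells, against 7.44, 7.38 and 7.67 in untreated ones, and its dimmer probe set had -0.02. The log2 fold changes in 22RV1 were 0.18 for CAPN15, -0.21 for B3GALT4 and 0.07 for PLA2G2A. Most of the difference between the lines in these genes thus lay in LnCaP.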

How the results depend on the processing

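The count of genes called in 22RV1 was 0, and it was 1 with array weights (HLA-DQB1) and 0 to 1 when each 22RV1 array was left out in turn. Genes at an unadjusted p under 0.05 numbered 1351 with the replicate block, 1315 with 22RV1 arrays alone and the replicate block, 1362 with array weights, 361 among genes above the median level (fewer genes tested), 1145 over all probe sets (more tested), and 440 to 838 with an array left out. For the difference between the lines, the replicate block called 19 genes and leaving out an array gave 0 to 1 (PCDH7, without untreated replicate 2). Over 95 named genes and 16 alternatives, 17 values changed sign. CHRNA5 was at 0.0313 with array weights, 0.0976 without the arrays numbered 3 and -0.0791 to 0.0624 with an array left out. CHRNB1 was at 0.00431, 0.0224 and -0.102 to 0.0920 under the same settings, and PMVK at 0.00376 without the arrays numbered 3 and -0.115 to 0.0745 with an array left out. With an array left out, KLK3 ranged over -0.744 to 0.0387, IL6 over -0.0340 to 0.133, FOS over -1.44 to 0.158 and PLA2G2A over -0.0231 to 0.141. Of 17 list medians, 8 changed sign under some setting. The G1/S median did so at 0.00943 without the arrays numbered 3. With an array left out, the androgen-induced median ranged over -0.123 to 0.0213, androgen-repressed over -0.108 to 0.173, prostate lineage over -0.158 to 0.0365, nicotinic receptors over -0.0681 to 0.0358, NF-kappaB and cytokines over -0.0410 to 0.0151, MHC class II over -0.0388 to 0.00443 and interferon-stimulated genes over -0.0574 to -0.00237 (0.0104 with all arrays). The cause of these changes was not tested.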
